A study of Rattus norvegicus with 16 samples.

Results

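Livers of male RccHan Wistar rats that had eaten phenformin for 14 days were compared with livers of untreated rats of the same day. The rats, 7-8 weeks old, were given either 3000 ppm phenformin in the diet or untreated food. The groups were taken from the sample titles, which give 4 arrays of phenformin livers and 4 arrays of control livers at day 14, or 8 of the 16 arrays of the series. The other 8 arrays hold the same groups at day 3 and enter here through the shared estimate of spread and for a comparison of the effects at both days. The labels state 5 animals per group, of which 4 per group are analysed here, and 2 or 3 animals per cage. The sources used here do not say which animals shared one. The titles call the arrays biological replicates, so p-values measure the spread between these arrays, and folds are ratios of the deposited values, whose scale was set by the submitters. RNA of a piece of liver was measured on a 1-colour Affymetrix whole-transcript array, and 22093 genes had a probe set of their own.

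Phenformin is a biguanide, a glucose-lowering drug related to metformin that inhibits complex I of the respiratory chain and, through the fall in cellular energy, activates the kinase AMPK. The liver takes up biguanides through organic cation transporters and is the organ in which they lower glucose output. Many of its metabolic genes also cycle over the day, driven by feeding and by the circadian clock, a loop in which BMAL1 and CLOCK activate the genes of their own repressors (the PER, CRY and REV-ERB proteins) through E-box elements.

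The tissue label fitted the markers: albumin (Alb) stood at 19.87 on the log2 intensity scale in phenformin livers and 19.90 in control livers, close to the top of the scale, and the nuclear factor Hnf4a at 14.90 in phenformin livers and 14.93 in control livers. Of 8 measured hepatocyte markers, none passed the test. The mean of 13 Kupffer cell and macrophage markers ranged from 9.81 to 10.54 over the phenformin arrays and from 9.93 to 10.40 over the control arrays, and the mean of 12 T and NK cell markers from 5.45 to 5.76 over the phenformin arrays and from 5.57 to 5.76 over the control arrays. Among these the defining genes Cd3d, Cd3e and Cd8a lay below the median gene (5.86) in both groups. The pairwise comparison of arrays found no more than 6 equal values, and the median linear intensity lay between 30.9 and 34.5 over the 16 arrays. The control array 4 of day 14 often stood apart from the other 3 control arrays and had the lowest weight (0.644) of the day-14 arrays when limma weighted arrays by their fit, followed by phenformin array 1 (0.659). In a piece of tissue, fewer cells of a type and less RNA per cell cannot be told apart.

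After 14 days, 71 genes (0.321%) passed limma's test at a Benjamini-Hochberg adjusted p under 0.05, of which 32 (0.145%) were higher and 39 (0.177%) lower in phenformin than in control livers. The largest rises were those of Nr1d1 and Cyp8b1, the largest falls those of Bhlhe40, Csad and Ppp1r3b. The phenformin and control arrays did not overlap for any of the 71 genes, and a small p favours such genes. Of all genes, 2.79% were higher and 2.44% lower without overlap. At least 2-fold differences were found for 12 genes that rose and 16 that fell. Over all genes, the differences were centred on 0 with an SD of 0.23 on the log2 scale. At an unadjusted p under 0.05, 2484 genes (11.2%) differed, 1439 of them upwards (6.51%) and 1045 downwards (4.73%). Of the called genes, 4 lay below the median gene in mean level.

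**Figure D1:**
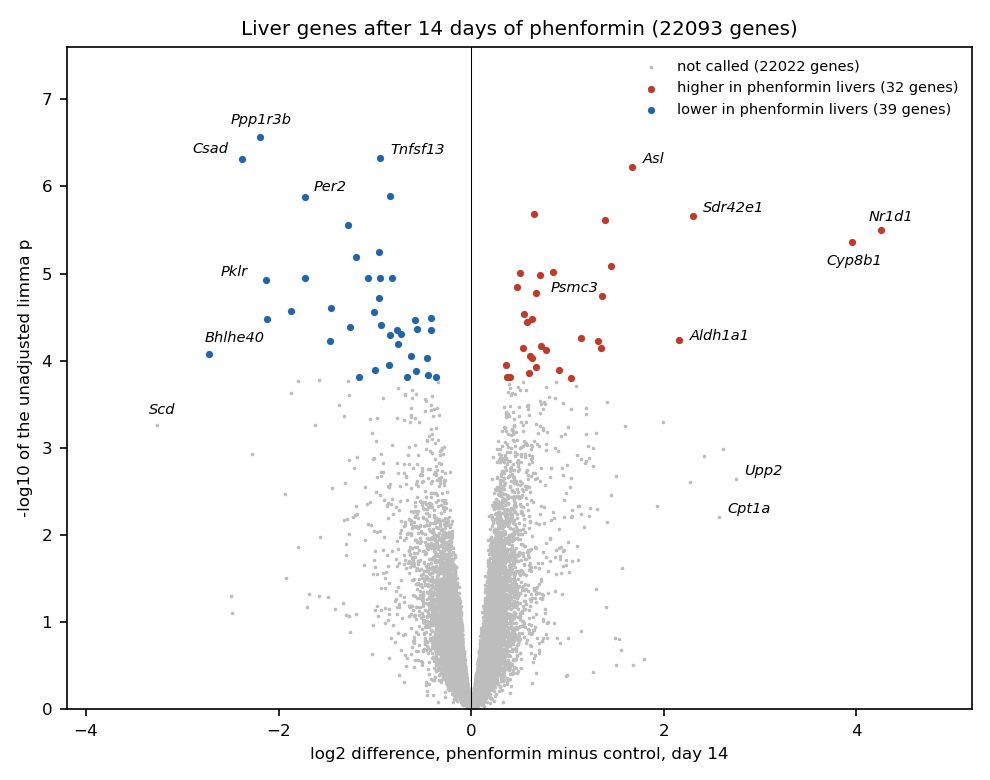
Each point is 1 of 22093 genes, with the log2 difference (phenformin minus control livers, day 14) on the x axis and the -log10 of the unadjusted limma p on the y axis. Red and blue points are the 32 genes called higher and the 39 called lower; Scd, Cpt1a and Upp2 lay far from 0 without passing the test.

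The calls were of unequal firmness. Of the 71, 15 kept their call under each of 25 other settings, including the loss of any single array: Nr1d1, Cyp8b1, Sdr42e1, Asl, Mbnl3 and Slco1b2 among the rises, and Csad, Ppp1r3b, Pklr, Per2, Slc25a23, Tnfsf13, Ces4a, Cemip2 and Aph1bl2 among the falls. No call reversed in direction, but the loss of a single array could not reverse one, because the groups do not overlap for these genes. The counts themselves moved with single arrays: 12 genes higher and 18 lower remained without phenformin array 4, 13 and 17 without phenformin array 3, and 15 and 19 without phenformin array 2. Without phenformin array 1 there were 74 higher and 48 lower, and without control array 4 there were 66 of each. A fit of the 8 day-14 arrays by themselves called 8 genes higher and 15 lower, of which 17 were among the 71.

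The clock genes gave the largest rise and several of the largest falls. Nr1d1, which encodes the repressing nuclear receptor REV-ERB alpha, read 9.58, 9.90, 10.71 and 9.66 in phenformin livers, against 5.61, 5.6, 5.72 and 5.87 in control livers, all on the log2 scale. Every phenformin array lay far above every control array, and 3 of the 4 control values lay below the median gene. No detection calls were used here, and near background a fold can be too small. The difference was 19.2-fold (95% interval 7.97 to 46.3; adjusted p = 0.0063). Its paralogue Nr1d2 read between 9.45 and 11.83 in phenformin livers and between 8.15 and 9.02 in control livers without overlap, a difference of 3.99-fold that did not pass the test (adjusted p = 0.0734).

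Bhlhe40, a basic helix-loop-helix repressor that competes for E-boxes, read 8.73, 10.65, 11.14 and 8.88 in phenformin livers, against 12.99, 12.78, 12.71 and 11.78 in control livers. The phenformin arrays fell into a lower and a higher pair, all of them below the control arrays. The fall was 6.57-fold (3.09 to 14.0; adjusted p = 0.0352), and the call was lost without any one of 7 arrays, with an adjusted p of up to 0.109 (without phenformin array 4). Per2, a period repressor, read 6.08, 5.66, 5.90 and 5.96 in phenformin livers, against 8.24, 7.39, 7.51 and 7.35 in control livers, a 3.30-fold fall (2.37 to 4.60; adjusted p = 0.00485). The phenformin arrays were close together, and control array 1 was the highest. Cry1, a cryptochrome repressor, fell 3.30-fold as well (2.22 to 4.91; adjusted p = 0.0115), with 6.84 to 7.44 in phenformin livers and 7.88 to 9.67 in control livers. A weaker probe set of Cry1, which was not used for the gene, differed by -0.49.

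A list of 8 measured clock repressors did not include the REV-ERB genes Nr1d1 and Nr1d2, both of which stood higher. Of these 8, 3 fell (0.177% of all genes did) and none lay above 0. The median of the list was -0.71 (-1.72 with the lower 40% of genes left out), where that of all genes was 0.00. The period gene Per1 was 2.27-fold lower without passing (adjusted p = 0.202). Its control array 4 read 6.18, as did phenformin array 4, while the other control arrays lay between 7.17 and 7.52. The activators Clock and Bmal1 did not pass: Clock, named after its values were seen, differed by 0.01 and Bmal1 differed by -0.36 on the log2 scale (adjusted p = 0.982 and 0.341). Of 9 clock output factors none passed. Hlf, a PAR domain transcription factor, was 2.42-fold lower and Usp2, a deubiquitinase, 3.48-fold lower, both without overlap and at an adjusted p of 0.0511. The hour of necropsy is not stated in the sources used here, so an effect of the drug and a difference in hour between the groups cannot be told apart.

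The 250 bases upstream of the annotated start are shown for Nr1d1 and Cyp8b1, which had the largest rises, and for the called repressors Per2 and Bhlhe40 (the called repressor Cry1 is not shown), because E-boxes (CACGTG, a palindrome, so that both strands read alike) are the elements of the clock loop. The sequences are from RefSeq (GRCr8): Nr1d1 at chr10:84229455-84229704 on the minus strand (the second of 2 annotated starts), Cyp8b1 at chr8:130457593-130457842 on the minus strand, Per2 at chr9:99496994-99497243 on the minus strand and Bhlhe40 at chr4:143174200-143174449 on the plus strand. Of the 2 windows of Nr1d1, the one that holds an E-box is shown. Capitals mark an E-box.
Nr1d1: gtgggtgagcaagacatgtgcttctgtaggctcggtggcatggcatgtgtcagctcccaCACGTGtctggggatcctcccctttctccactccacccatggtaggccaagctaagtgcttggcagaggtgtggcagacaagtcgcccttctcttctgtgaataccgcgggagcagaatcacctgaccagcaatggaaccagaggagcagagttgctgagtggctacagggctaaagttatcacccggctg
Cyp8b1: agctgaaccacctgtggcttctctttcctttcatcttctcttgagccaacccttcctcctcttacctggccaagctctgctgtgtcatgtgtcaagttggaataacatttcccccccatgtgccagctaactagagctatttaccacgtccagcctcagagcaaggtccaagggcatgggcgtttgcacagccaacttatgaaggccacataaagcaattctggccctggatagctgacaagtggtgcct
Per2: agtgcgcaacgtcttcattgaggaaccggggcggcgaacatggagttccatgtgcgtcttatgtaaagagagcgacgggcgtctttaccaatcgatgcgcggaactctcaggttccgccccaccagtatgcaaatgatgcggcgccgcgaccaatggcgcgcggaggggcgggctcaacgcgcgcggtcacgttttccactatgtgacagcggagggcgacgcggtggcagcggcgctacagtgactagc
Bhlhe40: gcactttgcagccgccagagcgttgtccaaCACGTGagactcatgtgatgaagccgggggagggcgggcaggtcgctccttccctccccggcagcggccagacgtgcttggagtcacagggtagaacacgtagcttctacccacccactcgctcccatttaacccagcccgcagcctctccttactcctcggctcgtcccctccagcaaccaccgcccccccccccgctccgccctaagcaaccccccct
An E-box was found in 1 of the 2 windows of Nr1d1, at -191 from the start, and in that of Bhlhe40, at -220. These exact letters are not in the Per2 and Cyp8b1 windows. Variants of the E-box that differ from CACGTG were not searched, so the Per2 and Cyp8b1 windows may hold such forms. Of all 33469 upstream windows of this length, 5.59% hold an E-box. The core of the element bound by ROR and REV-ERB receptors (TAGGTCA or TGGGTCA, on either strand) is in none of the 4 sequences and in 5.62% of all windows. The windows of Nr1d2, Asl, Csad, Pklr, Cdkn1a and Tsku were searched as well and held neither element. A match is a description of these letters and not of binding.

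**Figure D2:**
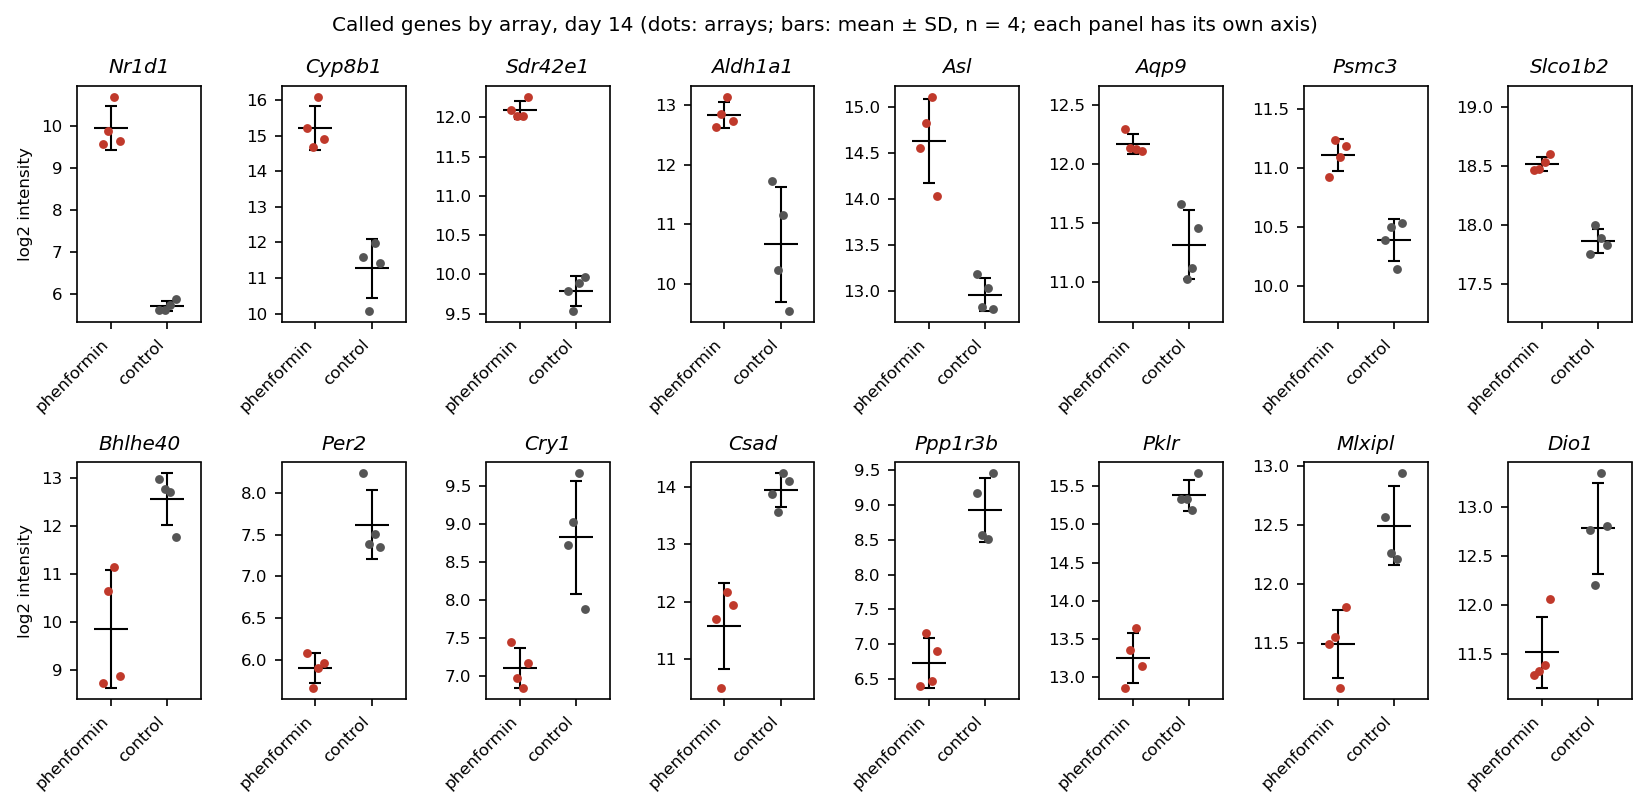
Log2 intensity of 16 called genes in each of the 4 phenformin arrays (red, left) and the 4 control arrays (grey, right) of day 14, with the mean ± SD, and a separate y axis per gene. The groups do not overlap in any panel; Bhlhe40 spread most in phenformin livers and Aldh1a1 in control livers.

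Cyp8b1 and Slco1b2, of bile acid synthesis and transport, were among the clearest rises, while Csad and Slc10a5 fell. Cyp8b1, the sterol 12-alpha-hydroxylase that directs synthesis towards cholic acid, read 15.21, 14.67, 16.09 and 14.89 in phenformin livers, against 11.60, 10.06, 11.98 and 11.43 in control livers. The lowest phenformin array lay well above the highest control array. The rise was 15.4-fold (6.67 to 35.6; adjusted p = 0.00806). Slco1b2, a hepatic uptake transporter of organic anions and bile acids, averaged 18.52 ± 0.06 in phenformin livers and 17.87 ± 0.10 in control livers (SD, n = 4 each), a 1.57-fold rise without overlap in limma (adjusted p = 0.00599). Of 13 bile acid synthesis genes only Cyp8b1 passed (0.321% of all genes did), and the median was 0.23. That median was 0.07 with the mean of a gene's probe sets, 0.12 without control array 4 and 0.15 without phenformin array 2. Cyp7a1, the rate-limiting enzyme, read 13.84, 12.44, 11.16 and 14.66 in phenformin livers and 14.47, 13.01, 13.5 and 16.16 in control livers, with overlapping arrays (adjusted p = 0.609). Amacr, a racemase of bile acid side chains, was 1.85-fold higher without overlap at an adjusted p of 0.0511. Csad, which makes hypotaurine on the way to taurine, the partner of bile acid conjugation, read 11.70, 10.49, 12.16 and 11.94 in phenformin livers, against 13.88, 13.57, 14.24 and 14.11 in control livers. It fell 5.19-fold (3.41 to 7.90; adjusted p = 0.00329), and array 2 was the lowest of its group in both. Slc10a5, a member of the bile acid carrier family, fell 2.29-fold (adjusted p = 0.0103). In a list of 13 genes of bile acid transport and its regulation, 1 was called higher (0.145% of all genes were) and none lower. In that list 6 lay above 0. Its median was -0.01 (-0.07 to 0.06 under the other settings).

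Genes by which hepatocytes sense and use carbohydrate stood mostly below 0, and Pklr and Mlxipl among them fell. Pklr, the liver pyruvate kinase, read 12.86, 13.36, 13.64 and 13.15 in phenformin livers, against 15.33, 15.33, 15.19 and 15.67 in control livers. Both groups were tight and lay far apart, and the fall was 4.36-fold (2.67 to 7.14; adjusted p = 0.0115). Mlxipl, which encodes the glucose-responsive factor ChREBP, fell 2.00-fold (1.5 to 2.67; adjusted p = 0.0458) and lay below all control arrays (11.12 to 11.81 in phenformin and 12.21 to 12.94 in control livers). This call was lost without any one of 13 arrays, with an adjusted p of up to 0.133 (without phenformin array 3). Of 9 measured members, 2 fell (0.177% of all genes did) and 6 had arrays lower without overlap (2.44% of all genes did). The median was -0.69 (-0.79 to -0.56 under the other settings). The glucokinase regulator Gckr was 1.61-fold lower (adjusted p = 0.0578). Tkfc and Khk of fructose use and, named after its values were seen, Pfkfb1, a regulator of glycolytic flux, were 1.97-fold, 1.43-fold and 2.15-fold lower at adjusted p of 0.132, 0.14 and 0.148. Core glycolysis, by contrast, had no call among 17 genes and a median of -0.05.

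Ppp1r3b, which targets protein phosphatase 1 to glycogen, read 6.4, 7.16, 6.48 and 6.91 in phenformin livers, against 9.17, 8.56, 8.51 and 9.45 in control livers. The fall was 4.56-fold (3.15 to 6.61; adjusted p = 0.00329), the smallest adjusted p of the comparison, shared with Asl, Csad and Tnfsf13. Gbe1, the glycogen branching enzyme, fell 1.8-fold (adjusted p = 0.0422), a call that centring, quantile normalization or weighting of the arrays ended and that was also lost without any one of 11 arrays (adjusted p of up to 0.132, without phenformin array 3). The other 10 of 12 glycogen genes did not pass. Among gluconeogenic genes the glycerol channel Aqp9 read 12.30, 12.14, 12.13 and 12.11 in phenformin livers, against 11.66, 11.03, 11.12 and 11.46 in control livers. The phenformin values were nearly equal, and the rise was 1.8-fold (1.49 to 2.19; adjusted p = 0.0115). Glycerol kinase (Gk) was 1.82-fold higher without overlap (adjusted p = 0.0594), while Pck1 and G6pc1, which encode the classical rate-limiting steps, overlapped between the groups (adjusted p = 0.832 and 0.564).

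Lipid genes differed in opposite directions without passing the test. In fatty acid synthesis none of 15 genes was called, 2 lay above 0 and the median was -0.36. Scd, the stearoyl-CoA desaturase, read 13.51, 15.59, 11.20 and 13.59 in phenformin livers, against 16.99, 17.11, 16.43 and 16.40 in control livers. The groups did not overlap, but the phenformin arrays spanned more than 4 log2 units and the 9.60-fold difference (3.18 to 29.0) had an adjusted p of 0.0777. Thrsp, a lipogenic protein driven by thyroid hormone and carbohydrate, was 3.66-fold lower without overlap (adjusted p = 0.0578). Fasn, named after its values were seen, read between 11.39 and 13.25 in phenformin livers and from 11.75 to 16.44 in control livers, so that control array 3 fell among the phenformin arrays.

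In fatty acid oxidation and ketone synthesis none of 22 genes was called, 8 were higher without overlap (2.79% of all genes were), none was lower without overlap, and the median was 0.25. Cpt1a, the gate of mitochondrial fatty acid entry, read 13.47, 13.98, 16.09 and 14.65 in phenformin livers, against 11.35, 11.59, 13.58 and 11.38 in control livers. Array 3 was highest in both groups, and that of the control livers overlapped the phenformin arrays. The 5.94-fold difference (1.8 to 19.6) did not pass the test (adjusted p = 0.209). Decr1, a reductase for unsaturated fatty acids, was 2.29-fold higher (adjusted p = 0.0839), and the trifunctional protein subunits Hadhb and Hadha were 1.61-fold and 1.43-fold higher (adjusted p = 0.0838 and 0.0991), each without overlap. The fatty acid transporter Cd36 was 3.04-fold higher without overlap (adjusted p = 0.0782). Of 20 PPARalpha targets none passed; Fgf21 read 4.94 to 5.37 in phenformin livers and 4.90 to 5.55 in control livers, a difference of -0.01 with a fold interval of 0.769 to 1.31.

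In the urea cycle, Asl, the argininosuccinate lyase, read 14.55, 14.82, 15.11 and 14.03 in phenformin livers, against 13.18, 12.82, 13.03 and 12.80 in control livers. It rose 3.18-fold (2.36 to 4.30, limma adjusted p = 0.00329). Asl was the only called gene among 9, whose median was 0.05, where 0.321% of all genes were called. Genes of amino acid breakdown stood mostly above 0: 24 of 29 did, none was called, and 11 had an unadjusted p under 0.05 on the higher side (6.51% of all genes did) and none on the lower. The higher count was 7 without control array 3, 7 without phenformin array 4, and 7 with 1 gene lower under quantile normalization. Agxt, the alanine-glyoxylate aminotransferase, and Aass, of lysine breakdown, were 1.87-fold and 1.53-fold higher without overlap (adjusted p = 0.103 and 0.101). Outside the list, the neutral amino acid transporter Slc1a4 rose 2.05-fold (adjusted p = 0.0493), a call that was lost without any one of 15 arrays (adjusted p of up to 0.112, without phenformin array 2).

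The proteasome, the protease of ubiquitin-tagged proteins, stood slightly above 0 in most of its genes. Of 65 genes with proteasome symbols, 1 rose (0.145% of all genes did), 27 had an unadjusted p under 0.05 on the higher side (6.51% of all genes) and none on the lower, 57 lay above 0, and 20 were higher without overlap (2.79% of all genes). The median was 0.25 and lay between 0.2 and 0.29 under the other 25 settings. Without control array 4, 5 genes were called and 33 had an unadjusted p under 0.05 on the higher side. Without phenformin array 1 these counts were 5 and 30. They were 1 and 22 without control array 3, and 1 and 23 without phenformin array 2. With the lower 40% of genes left out 8 were called, with a pseudocount of 16 it was 7, and with the day-14 arrays by themselves none. Psmc3, an ATPase of the 19S cap, read 10.92, 11.23, 11.09 and 11.18 in phenformin livers, against 10.39, 10.50, 10.14 and 10.53 in control livers. Each phenformin array lay above each control array, and the rise was 1.64-fold (1.39 to 1.93; adjusted p = 0.0115).

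By position in the complex, a grouping made after the values were seen, the medians were 0.35 over 8 alpha subunits of the 20S core, 0.35 over 7 constitutive beta subunits, 0.29 over 6 ATPases and 0.28 over 14 other subunits of the 19S cap. All 7 constitutive beta subunits, all 6 ATPases and all 14 other cap subunits lay above 0. The 4 beta subunits specific to the immunoproteasome or the thymus had a median of 0.20 and none had an unadjusted p under 0.05. The interferon-induced Psmb9, named after its values were seen, overlapped widely, with 8.13 to 9.32 in phenformin livers and 7.72 to 8.94 in control livers. The 15 copies and pseudogenes of subunits, which share sequence with them, had a median of 0.13 and no unadjusted p under 0.05. Named after their values were seen, the core subunit Psma5 was 1.55-fold higher (1.22 to 1.97), Psma2 1.41-fold (1.20 to 1.67) and the cap deubiquitinase Psmd14 1.34-fold (1.16 to 1.54), at adjusted p of 0.109, 0.0691 and 0.0805. The assembly chaperone Psmg4, also named after its values were seen, was 1.36-fold higher without overlap (limma adjusted p = 0.0777).

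**Figure D3:**
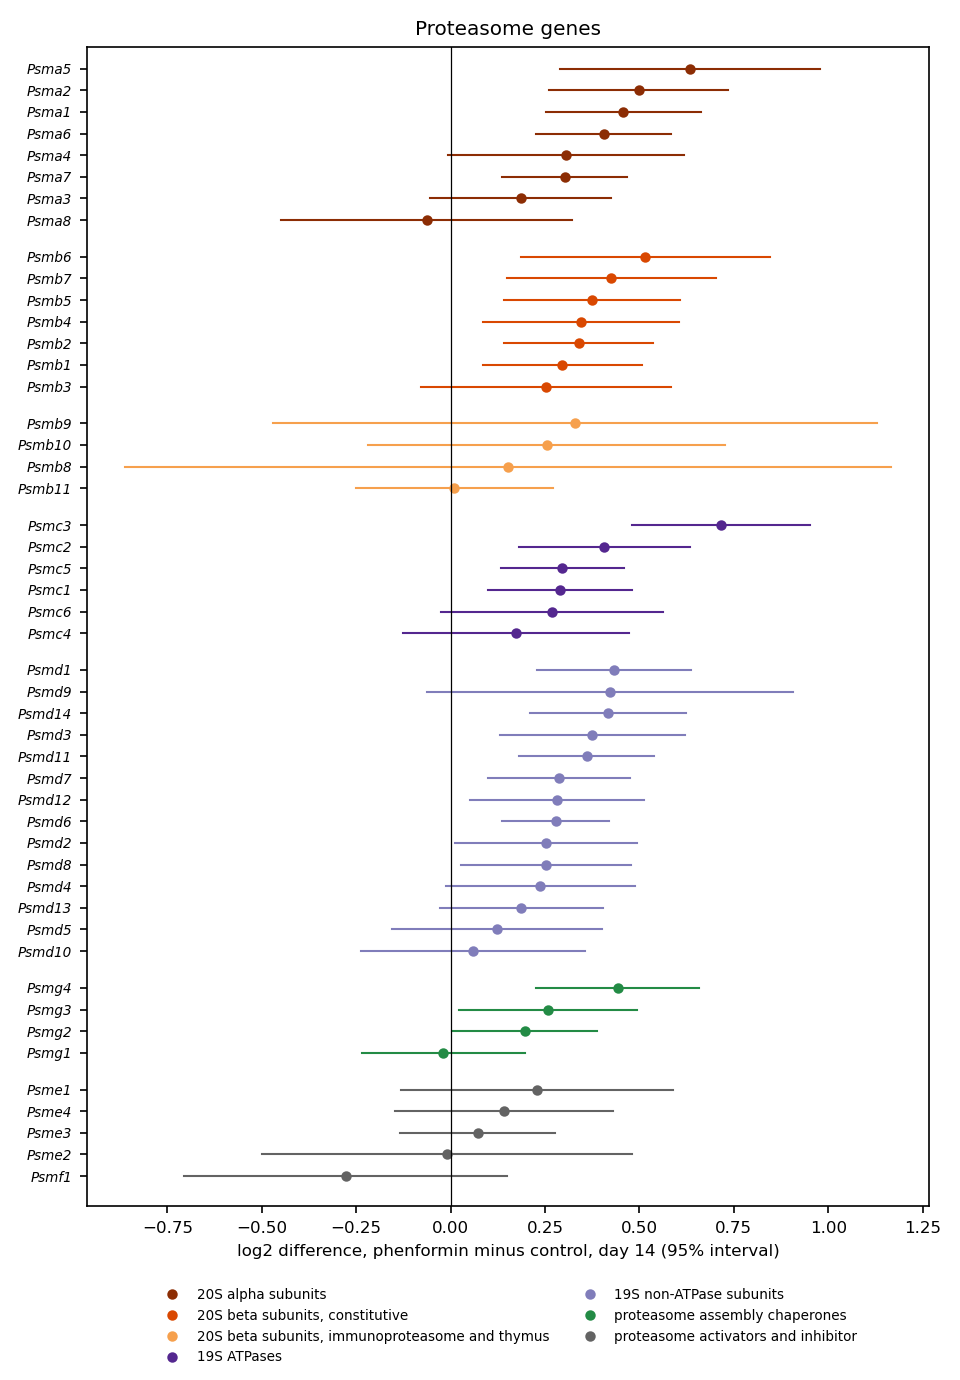
Log2 difference (phenformin minus control livers, day 14) of proteasome genes on the x axis with its 95% interval, grouped by colour into parts of the complex and ordered by size within a part. Nearly all core and cap subunits lie above 0, with medians of 0.28 to 0.35 by part, and Psmc3 alone among them was called.

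Chaperone genes stood mostly below 0. Fkbp4, a cochaperone of HSP90 in steroid receptor complexes, read 11.95, 11.88, 11.40 and 11.93 in phenformin livers, against 12.70, 12.21, 12.50 and 12.80 in control livers, a 1.69-fold fall (1.38 to 2.08; adjusted p = 0.03). The call was lost without any one of 6 arrays, with an adjusted p of 0.09 without control array 1. Of 17 heat shock and HSP90 genes it was the only call, where 0.321% of all genes were called. In this list 2 genes lay above 0 and the median was -0.17. Of 20 chaperones and factors of the unfolded protein response in the endoplasmic reticulum none was called, and the median was -0.14 (-0.22 without control array 2 and -0.08 without control array 4).

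Enzymes of drug and aldehyde metabolism were mixed. Aldh1a1, a retinal and aldehyde dehydrogenase, read 12.63, 12.84, 13.13 and 12.72 in phenformin livers, against 11.73, 10.24, 11.15 and 9.55 in control livers. The phenformin arrays were close together while the control arrays spread over more than 2 log2 units. The rise was 4.46-fold (2.50 to 7.95; adjusted p = 0.028), and it lost its call without any one of 4 arrays (adjusted p = 0.103 without phenformin array 3). Sdr42e1, a short-chain dehydrogenase, read 12.09, 12.02, 12.01 and 12.26 in phenformin livers, against 9.79, 9.53, 9.89 and 9.97 in control livers, a 4.94-fold rise (3.11 to 7.84; adjusted p = 0.00599) with little spread in either group. Gsta4, the glutathione S-transferase of lipid aldehydes, rose 1.52-fold (1.29 to 1.8; adjusted p = 0.0356, and 0.111 without phenformin array 4, 1 of 10 arrays whose loss ended the call). Of 29 glutathione S-transferases 9 had an unadjusted p under 0.05 on the higher side, against 6.51% of all genes, and none on the lower. Without control array 4 there were 5 on the higher side and 1 on the lower. All 7 of the alpha class, singled out after the values were seen, lay above 0. Of 7 alcohol dehydrogenases none was called, 4 lay above 0, and Adh5 and Adh6 were 1.47-fold and 4.84-fold higher (adjusted p = 0.109 and 0.14).

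Cyp4f5, an omega-hydroxylase subfamily member, fell 1.34-fold (1.20 to 1.5; adjusted p = 0.0239) with 7.91 to 8.18 in phenformin livers and 8.40 to 8.53 in control livers. The call was lost without any one of 5 arrays, with an adjusted p of 0.0879 without phenformin array 3. All 9 genes of the 4F subfamily lay below 0 (median -0.24), and all 3 of the 4A subfamily above it (median 0.60), a split that was seen in the values first. Members of a subfamily are close in sequence, so their probes may share signal. Among 16 targets of the drug-sensing receptors CAR and PXR, Aldh1a1 was the call, where 0.321% of all genes were called. Of the 16, 11 lay above 0 and the median was 0.44. Among 43 P450 genes of families 1 to 3 none was called. Cyp2b1, whose probe set lies on another chromosome than the gene and is of uncertain identity, and Cyp1a1 overlapped between the groups. Abcg2, an export pump of drugs and sterols, fell 1.95-fold (1.54 to 2.45; adjusted p = 0.0155, and 0.0544 without phenformin array 3). The esterase Ces4a fell 2.10-fold (adjusted p = 0.0115), while Ces2c was 2.45-fold higher without overlap (adjusted p = 0.0837).

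Genes marking hepatocytes around the central vein stood mostly above 0. Of 14 measured members none was called, 13 lay above 0, 8 had an unadjusted p under 0.05 on the higher side (6.51% of all genes did) and the median was 0.56. Without control array 4, 2 of them were called. Without phenformin array 1 none was, 6 had an unadjusted p under 0.05 on the higher side and the median was 0.40. The mean of the list ranged from 11.14 to 11.56 over the phenformin arrays and from 10.56 to 10.93 over the control arrays, without overlap. Cyp2e1, the ethanol-inducible P450, read 19.22, 19.02, 19.10 and 19.10 in phenformin livers, against 18.64, 18.64, 18.70 and 17.74 in control livers (adjusted p = 0.0984). These values lie near the top of the scale, where differences are compressed, and control array 4 stood low. Tbx3, a transcription factor, Slc13a3, a dicarboxylate transporter, and Lgr5, a Wnt pathway receptor, were 2.41-fold, 2.06-fold and 1.63-fold higher (adjusted p = 0.1, 0.0653 and 0.0989). Glul, the glutamine synthetase of this zone, named after its values were seen, was 1.54-fold higher without overlap (adjusted p = 0.292). The periportal list was above 0 as well, with a median of 0.25 over 10 genes (0.10 without control array 4) and no call.

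**Figure D4:**
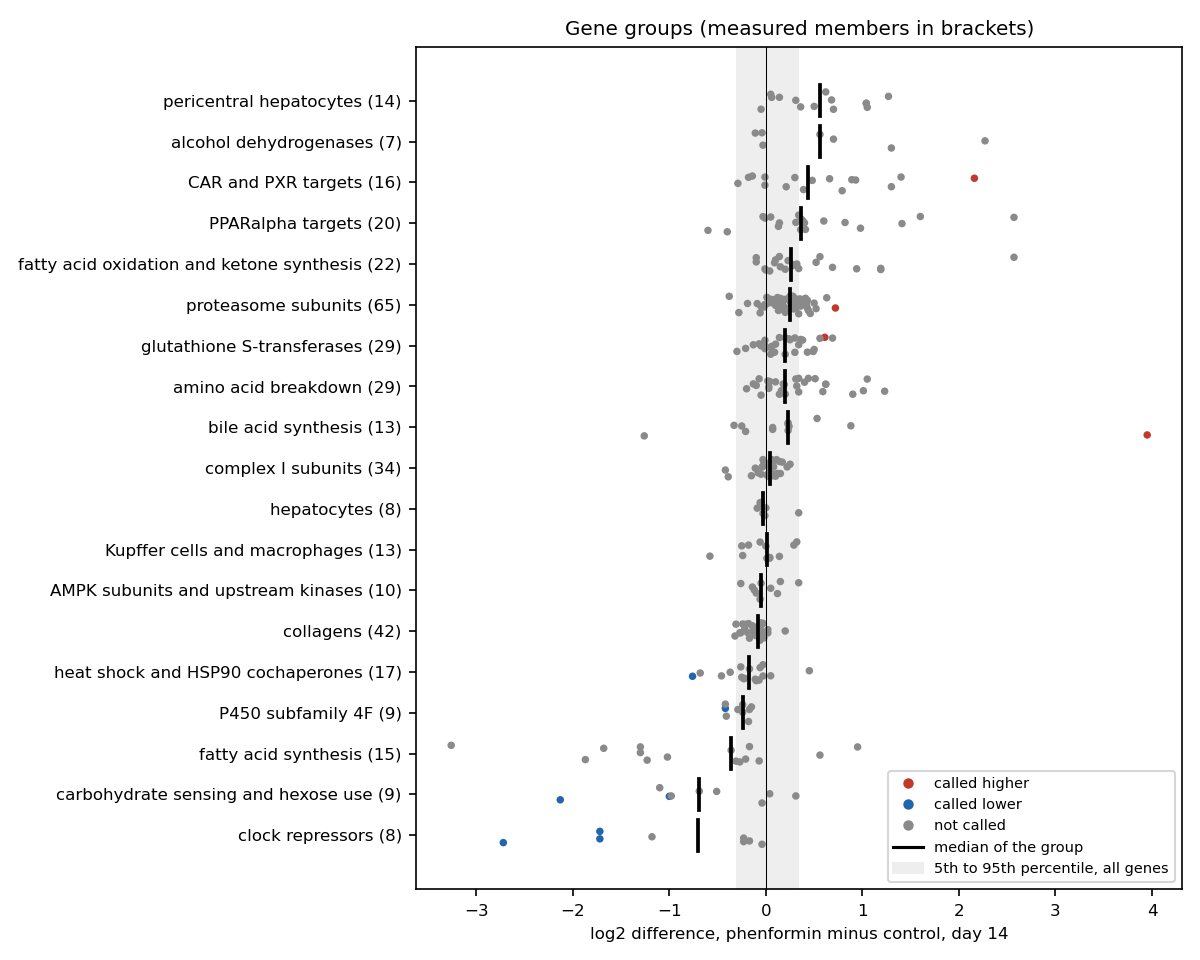
Log2 difference (phenformin minus control livers, day 14) of every measured member of 19 gene groups, with the median of each group as a black bar and the 5th to 95th percentile of all genes in grey. Clock repressors (a list without Nr1d1 and Nr1d2) and carbohydrate genes lie furthest below 0. Pericentral and alcohol dehydrogenase genes lie furthest above it, while few single members were called.

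Hormone-related and signalling genes were among the remaining calls. Dio1, the deiodinase that makes active thyroid hormone, read 11.29, 11.33, 11.39 and 12.06 in phenformin livers, against 12.77, 12.21, 13.35 and 12.81 in control livers. Phenformin array 4 stood closest to the control arrays, and the fall was 2.40-fold (1.73 to 3.33; adjusted p = 0.0239, and 0.0876 without phenformin array 3, 1 of 4 arrays whose loss ended the call). Cdkn1a, the cyclin-dependent kinase inhibitor p21, fell 4.36-fold (2.54 to 7.48; adjusted p = 0.0214), with 5.76 to 6.0 in phenformin livers and 8.21, 8.23, 8.60 and 7.03 in control livers. It was the only call among 14 p53 targets (median -0.04), where 0.321% of all genes were called. Its limma adjusted p was 0.0698 without phenformin array 4, the highest over 6 arrays whose loss ended the call. Tsku, a secreted leucine-rich protein, fell 3.66-fold (adjusted p = 0.0203, and 0.0723 without phenformin array 2). Mknk2, a kinase of the translation factor eIF4E, fell 2.44-fold (1.87 to 3.17; adjusted p = 0.00619). Pik3r1, the regulatory subunit of phosphoinositide 3-kinase, was 2.41-fold lower without overlap (adjusted p = 0.0578). Tnfsf13, the cytokine APRIL, fell 1.94-fold (1.64 to 2.29; adjusted p = 0.00329), with 7.14 to 7.58 in phenformin livers and 8.02 to 8.45 in control livers.

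Further calls, both rises and falls, lay outside the groups described above. Mbnl3, a splicing regulator, read 8.59, 8.62, 8.87 and 8.72 in phenformin livers, against 7.32, 7.46, 7.27 and 7.19 in control livers, a 2.62-fold rise (1.98 to 3.47; adjusted p = 0.00599) that no single array decided. Slc4a4, a sodium bicarbonate cotransporter, and Tmem30b, a subunit of lipid flippases, rose 2.58-fold and 2.72-fold (adjusted p = 0.0154 and 0.0115); the call of Slc4a4 was lost without phenformin array 4 (adjusted p = 0.0508). Slc25a23, a calcium-regulated mitochondrial carrier of ATP-Mg and phosphate, fell 1.94-fold (1.58 to 2.39; adjusted p = 0.0096) with 13.16 to 13.68 in phenformin livers and 14.30 to 14.50 in control livers. Smaller calls included Mtx2, of mitochondrial protein import (1.42-fold higher), and Pex3, of peroxisome formation (1.46-fold higher, adjusted p = 0.0208, and 0.0724 without phenformin array 2). Cox16, an assembly factor of cytochrome oxidase, was 1.34-fold lower (adjusted p = 0.0214, and 0.0747 without phenformin array 4). Slc4a4 and Slc25a23 were the only calls among 11 Slc4 and 56 Slc25 carriers, with medians of -0.01 and 0.03. Pex3 was the only call among 14 genes of peroxisome formation, grouped after the values were seen, with a median of 0.05. Of all genes, 0.321% were called.

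Xiap, an inhibitor of caspases, read 12.81, 12.73, 13.65 and 13.5 in phenformin livers, against 11.62, 11.64, 11.70 and 12.45 in control livers, a 2.49-fold rise (adjusted p = 0.028). Control array 4 stood nearest to the phenformin arrays, and the call was lost without any one of 5 arrays. Among the other calls, Cryl1, a crystallin-like dehydrogenase, rose 2.54-fold, Trim25, a ubiquitin ligase of antiviral signalling, 1.72-fold and Ung, the uracil DNA glycosylase, 1.54-fold. Pdlim1, a cytoskeletal adaptor, fell 2.77-fold, Mgat4b, a glycosyltransferase of N-glycan branching, 2.02-fold, the secreted Fndc4 1.94-fold and the transcription factor Nfic 1.54-fold. The endothelial genes Procr, a receptor of protein C, and Cd34 fell 1.59-fold and 1.5-fold, while none of 12 sinusoidal endothelial markers passed and their mean ranged from 9.92 to 10.29 over the phenformin arrays and from 10.09 to 10.41 over the control arrays. Apart from Fndc4, each of these 10 calls was lost without phenformin array 3, with adjusted p between 0.0759 (Ung) and 0.137 (Procr).

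No gene in the lists of known biguanide targets and of the stress response was called. With 0.321% of all genes called, a count of 0 in lists of this size is near the background. Of 34 complex I subunits none passed, and the median was 0.04; of 30 genes of complexes II to V none passed, and the median was 0.05. Of 10 AMPK subunits and upstream kinases, 7 biguanide transporters and 28 genes of the ATF4 stress response none passed, with medians of -0.06, -0.09 and -0.01. At an unadjusted p under 0.05 there were 3 genes among complex I subunits, 1 among complexes II to V, 1 among ATF4 genes and none in the other lists, where 11.2% of all genes lay under it. The stress hormone gene Gdf15 read 5.74 to 6.5 in phenformin livers and 5.99 to 6.30 in control livers, with a fold interval of 0.738 to 1.44.

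The effects at day 14 were set beside those at day 3, which share no arrays with them. Of the 71 genes called at day 14, 69 differed in the same direction at day 3, as did 60.8% of all genes. Vrk1 and Pacsin2 were the exceptions, with day-3 differences of -0.02 and 0.04. Both days called 26 genes, which is 36.6% of the day-14 calls and 10.2% of the 254 day-3 calls (1.15% of all genes). The tests of both days used the same estimate of each gene's spread, so these calls are not independent. Across the 22093 genes, which are not independent replicates, the effects of both days had a Pearson correlation of 0.444 and a Spearman correlation of 0.331. Of all genes, 1 (0.00453%) had effects that differed between the days at an adjusted p under 0.05, and 1034 (4.68%) did so at an unadjusted p under 0.05. That gene was Anlnl1, an anillin-like gene, which differed by 0.27 at day 14 and by -1.32 at day 3 (adjusted p of the difference = 0.0284). Cell cycle and replication genes as a list had a median of 0.14 at day 14 and -0.91 at day 3. The day-14 median was 0.04 without control array 2 and -0.01 without phenformin array 3, while the day-3 median lay between -0.96 and -0.73 over 24 settings. Stellate cell and fibroblast genes had medians of -0.01 at day 14 (-0.06 to 0.01 under the other settings) and -0.44 at day 3. The proteasome genes had 0.25 at day 14 and 0.14 at day 3, and the carbohydrate genes -0.69 and -0.42 on these days. These differences between the days were not tested for a list. Aldh1a1 differed by 2.16 at day 14 and 0.62 at day 3 on the log2 scale, and Tmem30b by 1.45 and 0.33, but the tests of these differences did not pass (adjusted p = 0.783 and 0.424).

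**Figure D5:**
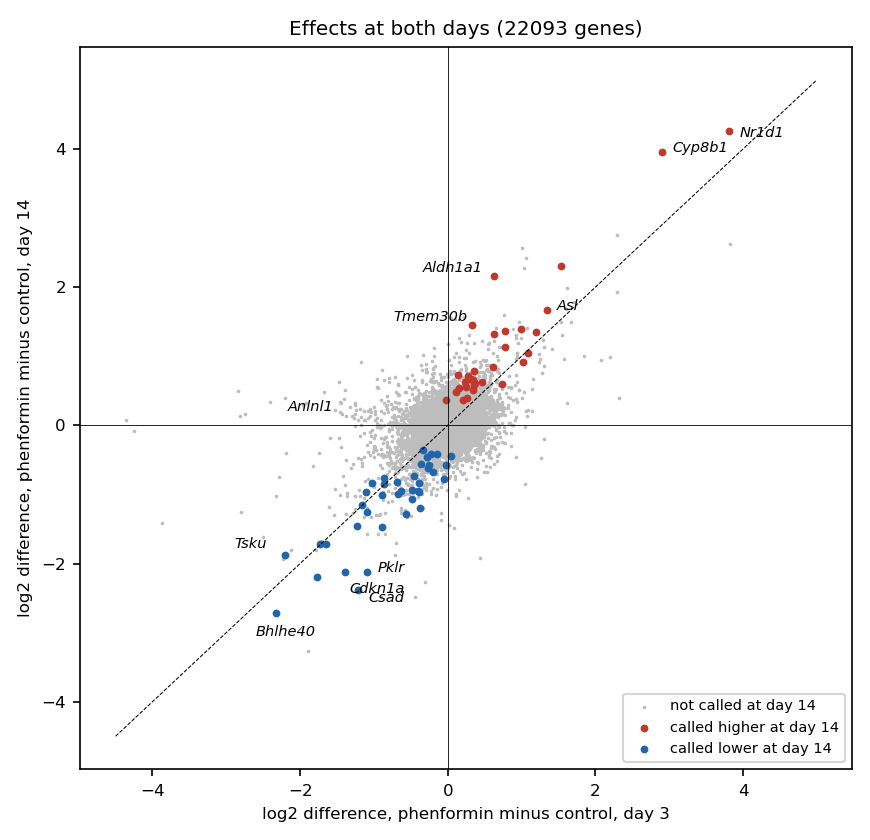
Log2 difference (phenformin minus control livers) of 22093 genes at day 3 on the x axis and day 14 on the y axis, with the dashed line of equality and the genes called at day 14 in red (higher) and blue (lower). All but 2 of the 71 called genes lie in the quadrants of equal direction, and Nr1d1 and Cyp8b1 lie furthest out.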

How the data were processed

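Liver RNA was hybridised to 16 one-colour Affymetrix arrays, 4 per group. The deposited intensity values were made by the authors with RMA, per the submitters' processing notes. They are linear, and the program, its version and any stretching of the scale were not stated in the labels. Log2 was taken with no pseudocount or filter. Of 68842 probe sets, 23446 had 1 gene symbol, 505 several and 44891 none here. The probe set with the highest mean stood for a gene (22093 genes, 1182 with several). For 215 of 21813 genes checked, the probe set's chromosome was not that of the gene in GRCr8, so their identity is uncertain.

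The 4 group means shared 1 linear model of the 16 arrays (limma 3.58.1, R 4.3.3), with p-values adjusted over all genes by the Benjamini-Hochberg method. Tables and figures used Python 3.11.15, pandas 2.3.3, numpy 2.4.6 and matplotlib 3.10.9. The fit was tested on simulated data. The fit takes a gene's spread as equal in the groups, and 4 arrays per group limit the precision.

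The genes and lists were chosen with earlier results of these data known. Named genes follow a rule: called genes, per list up to 3 further members with the smallest p (1 per family), the largest uncalled differences of 2 or more (log2), genes whose effects differed between days and a few key liver genes. Others are marked as named after their values were seen. List members are counted, with no test of a list. Alternatives were another spread estimate, a filter, normalization, centring, day-14 arrays by themselves, array weights, a pseudocount, the mean of probe sets, a replicate block and the loss of each array.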

Additional observations from a re-analysis of the deposited data

Results flagged for a closer look

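In 212 groups of 4 arrays of the genes named in the text, 17 times an array stood apart from the other 3 of their group by Dixon's test at the 95% level, which chance gives in about 1 of 20 groups. Control array 4 of day 14 did so for 6 genes. It was the low array for 5: Cyp2e1 read 17.74 there (18.64 to 18.70 on the others), Usp2 6.67 (8.07 to 8.25), Cish 5.23 (10.42 to 11.11), Tmem30b 5.55 (6.06 to 6.14) and Cd3e 5.03 (5.06 on each other array), and the high array for Xiap at 12.45 (11.62 to 11.70). Control array 3 stood high for Cpt1a at 13.58 (11.35 to 11.59) and for Upp2 at 10.77 (8.26 to 8.58), and control array 1 for Slc1a4 at 7.29 (6.43 to 6.53). Control array 1 was low for Cd34 at 5.86 (6.08 to 6.11). Of the phenformin arrays, array 1 was low for Alb at 19.78 (19.90 to 19.91) and high for Aqp9 at 12.30 (12.11 to 12.14) and Nfic at 11.26 (10.77 to 10.85). Array 3 was high for Anlnl1 at 5.22 (4.80 to 4.86) and low for Fkbp4 at 11.40 (11.88 to 11.95). Array 4 was high for Dio1 at 12.06 (11.29 to 11.39) and for Gckr at 14.42 (14.07 to 14.12).

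The effect on Anlnl1 differed between the days by 1.58 on the log2 scale (limma adjusted p = 0.0284), with 0.27 at day 14 and -1.32 at day 3. The gene lay below the median gene in day-14 livers.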

How the results depend on the processing

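No call of the 71 reversed in direction under the 25 other settings. The loss of a single array could not reverse one, because the groups do not overlap for these genes. Of the 71, 15 were kept in all settings, and 24 under the loss of any one array. The number of genes called higher and lower was 96 and 73 with the lower 40% of genes left out (fewer genes tested), 71 and 60 with a pseudocount of 16, and 8 and 15 with the day-14 arrays by themselves (fewer arrays). With single arrays left out, it ranged from 12 to 74 higher and from 17 to 66 lower. The other settings stayed within 1.5 times the counts given: 36 and 42 with an intensity trend and robust prior, 33 and 58 with quantile normalization, 32 and 33 with centred arrays, 27 and 33 with array weights and 33 and 43 with the mean of probe sets. With the replicate number as a block, 32 genes were higher and 42 lower, of which 53 were among the 71. Gbe1, Gsta4, Nfic, Trim25, Procr, Cox16, Vrk1 and Pacsin2 were among the 18 calls lost. The sources used here do not say whether the numbers pair the arrays. Deviations of same-numbered arrays from their group means had correlations of 0.244, -0.0423, 0.259 and 0.185 over 11047 genes, and 3 of the 4 arrays of each group correlated best with their own number, which is a hint from the data and not from the design. The count of genes whose effects differed between the days was 0 with the lower 40% of genes left out, a filter that removed Anlnl1 itself. It was also 0 with the replicate block, 2 with array weights, and from 0 to 10 with single arrays left out. The causes of the other shifts were not tested. Signal over background limits genes in the lower part of the scale, and 20 genes lie within 0.5 log2 units of its top, where differences are compressed.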

Other observations

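Collagen genes, the scaffold of the extracellular matrix, stood slightly lower. Of 42 measured, none was called, 6 had an unadjusted p under 0.05 on the lower side (4.73% of all genes did), 12 were lower without overlap (2.44% of all genes), 3 lay above 0 and the median was -0.08. The 6 became 3 without control array 4 and 10 with a pseudocount of 16. Of the stellate cell and fibroblast markers none was called, and their mean ranged from 8.53 to 8.70 over the phenformin arrays and from 8.62 to 8.74 over the control arrays. Markers of red cell precursors had a mean of 7.40 to 8.03 over the phenformin arrays and 8.00 to 8.28 over the control arrays, with a median of -0.28 over 7 genes (-0.43 without phenformin array 1 and -0.17 without phenformin array 2) and no call. Of 1128 olfactory receptor genes, which the liver is not known to use, 1 was called, where 0.321% of all genes were. This was Or51af1, which fell by 0.57 on the log2 scale. Its call was lost in 15 of 24 other settings, 14 of them the loss of a single array. The limma adjusted p was up to 0.228, with the day-14 arrays by themselves.

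Some of the largest differences did not pass the test. Upp2, a uridine phosphorylase, was 6.73-fold higher (2.22 to 20.4; limma adjusted p = 0.136), with 10.51, 11.15, 13.45 and 11.96 in phenformin livers and 8.46, 8.58, 10.77 and 8.26 in control livers. Inmt, an indole methyltransferase, was 6.16-fold higher (adjusted p = 0.1) and Hsd17b2, a steroid dehydrogenase, 5.36-fold higher (adjusted p = 0.108). Cyp2c12, a P450 known as female-biased in rat liver, read 9.57, 10.17, 9.75 and 11.27 in phenformin livers and 11.30, 11.53, 13.44 and 13.57 in control livers, a 4.83-fold difference without overlap (adjusted p = 0.107). Cish, an inhibitor of growth hormone signalling, read 5.06, 7.73, 9.48 and 5.33 in phenformin livers and 11.11, 10.75, 10.42 and 5.23 in control livers (adjusted p = 0.522). Abcb4, the phospholipid export pump of bile, was 2.65-fold higher (adjusted p = 0.0629) and Prox1, a hepatocyte transcription factor, differed by 0.78 log2 units (adjusted p = 0.0548).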
